A study of Mus musculus with 4 samples.

Results

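Ppargc1a, Esrrg, Cox6a2, Tcap, Ostn and Etv1 were followed through single-cell RNA profiles of mouse forebrain interneurons. The 6 genes are better known from muscle or from energy metabolism, and they were measured here in parvalbumin (PVALB) interneurons and in the cells sorted with them. They were chosen by symbol and make up 6 of the 43348 genes in each count matrix, where each symbol has 1 row. Tcap, Ostn and Etv1, 3 of the 6, were picked because their levels shift in cortical PVALB cells that lack Grin1. For these 3 genes, every PVALB comparison that uses the same cortical libraries is therefore given as a description with no test.

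Cells came from frontal cortex and hippocampus of mice at postnatal days 18 to 20. All mice carried Nkx2.1-Cre, which is active in the progenitors of the medial ganglionic eminence, and the Ai14 allele, which labels the progeny with TdTomato. WT mice were Grin1 wt/wt and null mice were Grin1 fl/fl littermates, so that the labelled cells of null mice lose the obligatory subunit of NMDA receptors. Animals of both sexes were used, several were processed for a genotype, and their number in each library is not given in the sources used here. In all groups, tissue was handled in tetrodotoxin, the NMDA receptor antagonist APV and actinomycin-D, and live TdTomato+ cells were sorted. There were 3 WT libraries and 2 null libraries for each region. Replicate 1 of each group used version 2 of the 3′ chemistry, and the other replicates used version 3. Replicate numbers were given to libraries by matching their cell counts to those in the study's methods.

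Ppargc1a encodes PGC-1alpha, a transcriptional coactivator that raises mitochondrial gene expression in muscle, heart and brown fat. Esrrg encodes ERRgamma, an orphan nuclear receptor through which PGC-1alpha acts on genes of oxidative metabolism. Cox6a2 encodes the heart and skeletal muscle form of a cytochrome c oxidase subunit, whose counterpart in most tissues is Cox6a1. Tcap encodes telethonin, which caps titin at the sarcomeric Z-disc. Ostn encodes osteocrin, a secreted peptide of bone and muscle that binds the natriuretic peptide clearance receptor. Etv1 encodes ER81, an ETS-family transcription factor known in cortical PVALB cells for tuning of their firing by activity. PVALB interneurons fire fast and have a high energy demand, and PGC-1alpha is known to be abundant in them.

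All positions are on GRCm38 (mm10) and span whole genes in GENCODE vM21. Ppargc1a lies at chr5:51454250-51567726 and Cox6a2 at chr7:128205435-128206387, both on the minus strand. On the plus strand, Tcap lies at chr11:98383811-98384953, Ostn at chr16:27307489-27351212, Etv1 at chr12:38779380-38870484 and Esrrg at chr1:187608791-188214885. The study lengthened gene ends downstream by up to 4 kb before counting, or less where another feature lay near. Pnmt starts 1497 bp beyond the end of Tcap on the same strand, and 4931431B13Rik starts 2107 bp beyond Cox6a2, so the assignment of reads between these neighbours depends on that extension.

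After filtering, 26201 of 26987 cells remained, at 177 to 4599 cells and a median of 1479 to 9763 UMIs per library. The filter removed 708 of 7919 null cells (8.94%) and 78 of 19068 WT cells (0.409%), nearly all of the null ones in replicate 2 of each region (320 and 381), and 558 of the null cells had 30% or more of their UMIs from mitochondrial transcripts. A UMI (unique molecular identifier) marks 1 captured RNA molecule. Of 35 clusters, 29 could be named from their markers. Class names such as PVALB and SST stand for PVALB-like and SST-like cells of these rebuilt clusters. The PVALB class held 2156 cells, between 28 and 646 per library. Its WT sums carried Pvalb at 1642 CPM (UMIs per 1000000 UMIs of a cell class in a library) against 60.6 CPM in the somatostatin (SST) class. A class marked by tyrosine hydroxylase (TH) lay between them, at 485 CPM. Grin1 lay between 17.0 and 42.5 CPM in the null PVALB sums and between 102 and 215 in the WT sums. Its difference was -2.61 ± 0.43 (log2, SE) in cortex (edgeR adjusted p = 0.0274) and -2.84 ± 0.43 in hippocampus (adjusted p = 0.0969). Grin1, the deleted gene, thus missed the threshold for a call used below in both regions. A gene that did not pass in these PVALB comparisons is therefore not shown to be unchanged. The exons that the floxed allele removes are not given in the sources used here, so a 3′ count of Grin1 is a limited check of the labels. Pairs of libraries shared at most 12 cell barcodes.

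Levels below are in CPM, and ± is the SD over libraries unless SE is stated. Because the classes came from clustering these same cells, differences between classes are described and not tested. Where groups are said to overlap or not, this describes the few libraries at hand. The share of all genes that separate in the same way is not given. UMIs were counted at 3′ ends and do not scale with transcript length.

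In WT libraries, 4 of the 6 genes had their highest mean level in PVALB cells, and the other two peaked elsewhere. Ppargc1a was highest in a cluster marked by tyrosine hydroxylase (TH), at 379 ± 34.2 CPM (n = 6), followed by PVALB at 298 ± 15.3 CPM and SST at 136 ± 48.5 CPM. The ranges of these 3 classes over libraries did not overlap. Esrrg stood at 63.5 ± 8.52 CPM in PVALB cells and at 30.9 ± 13.0 CPM in TH cells, again with no overlap, whereas TH, neurogliaform (NGFC, 19.0 CPM) and SST (15.6 CPM) cells overlapped in that order. Cox6a2 reached 564 ± 62.8 CPM in PVALB, 485 ± 116 CPM in NGFC and 373 ± 88.4 CPM in TH cells, and each neighbour in this order overlapped. It fell away to 52.0 ± 43.4 CPM in SST cells. Tcap was at 315 ± 79.6 CPM in PVALB and 183 ± 42.7 CPM in TH cells, which overlapped, and at 43.8 ± 17.2 CPM in NGFC cells. Ostn was found in PVALB cells at 22.4 ± 23.8 CPM and in NGFC cells at 15.4 ± 13.5 CPM, with wide and overlapping ranges. In WT hippocampus alone, Ostn was at 0 to 2.92 CPM in PVALB cells and at 0 to 23.7 CPM in NGFC cells, so PVALB cells did not lead there. The NGFC level came from few cells, since a UMI of Ostn was seen in 2.74% of WT cortical and 0.95% of WT hippocampal NGFC cells. Etv1 was the exception: oligodendrocytes (153 ± 95.9 CPM) and their precursors (137 ± 56.1 CPM) carried more than PVALB cells (33.0 ± 15.1 CPM). Glutamatergic neurons (73.4 ± 54.0 CPM) and microglia (67.1 ± 60.3 CPM) also had higher means than PVALB cells. The oligodendrocyte range (43.6 to 301 CPM) overlapped the PVALB range (14.6 to 51.4 CPM), and the precursor range (68.5 to 217 CPM) did not.

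**Figure D1:**
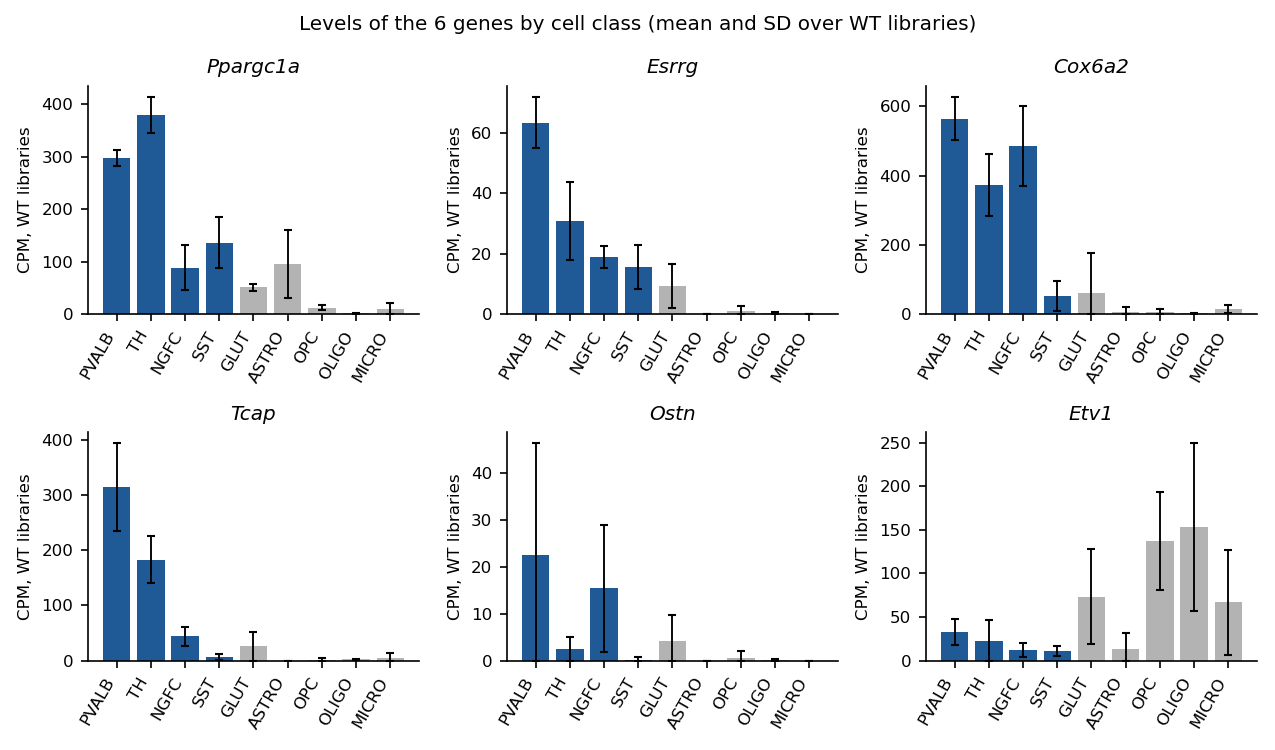
Mean level of each gene in 9 cell classes of the WT libraries, in CPM of the class sum. Bars are means and error bars are SDs over libraries, cut at 0. PVALB cells lead for Cox6a2, Tcap, Ostn and Esrrg, TH cells for Ppargc1a (379 CPM) and oligodendrocytes for Etv1 (153 CPM). Both regions are pooled, and Ostn in PVALB cells of WT hippocampus was at 0 to 2.92 CPM.

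PVALB cells were 8.23% of all kept cells and held 12.1% of all UMIs, and they held 63.6% of all Tcap UMIs, 68.9% of Ostn, 45.5% of Cox6a2 and 34.0% of Ppargc1a. SST cells, which are more numerous, held 36.4% of Ppargc1a UMIs, and NGFC cells held 32.7% of Cox6a2. Oligodendrocytes held 73.7% of Etv1 UMIs. At least 1 UMI was seen in 79.5% of PVALB cells for Ppargc1a, 85.9% for Cox6a2, 59.0% for Tcap, 38.3% for Esrrg, 21.2% for Etv1 and 10.1% for Ostn, at a median of 8288 UMIs per cell. Oligodendrocytes, which should lack the muscle genes, gave 0.663% for Ppargc1a, 1.70% for Cox6a2, 0.800% for Tcap and 0.0343% for Ostn at a median of 5361 UMIs. With each cell thinned to 1000 UMIs, the PVALB shares were 23.2% for Ppargc1a, 42.1% for Cox6a2, 22.4% for Tcap and 2.60% for Ostn. The PVALB shares of these 4 genes lay above the oligodendrocyte shares. Those serve only as a rough guide to free RNA, because doublets were not removed and free RNA was not measured directly. For Etv1 the thinned share was 4.58% in PVALB cells and 13.6% in oligodendrocytes.

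The name of the group was checked against other genes of muscle. Of 24 sarcomere and muscle genes, 15 were below 1 CPM in WT PVALB cells and 6 were at 0: Ckm, Myoz2, Myoz3, Csrp3, Myom1 and Myom3. Titin (Ttn), the partner of telethonin in muscle, was at 0.905 CPM. Only Ckb (2217 CPM), Fndc5 (338 CPM) and Ckmt1 (138 CPM) of the 24 reached 20 CPM, and Ckb and Ckmt1 are the brain-type and ubiquitous creatine kinases. Cox6a1, the common form of the subunit, was at 857 CPM beside Cox6a2, while Cox7a1 (11.5 CPM) and Cox8b (2.61 CPM), muscle forms of other subunits, were low. The data thus do not bear out a muscle program in these cells, and the 6 genes are named below one by one.

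**Figure D2:**
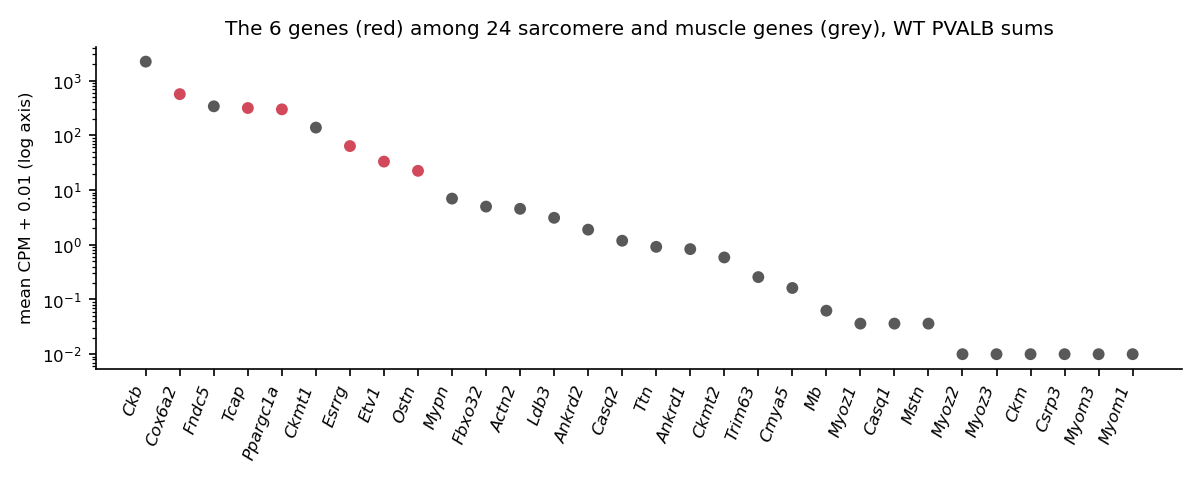
Mean level in WT PVALB cells of the 6 genes (red) and of 24 sarcomere and muscle genes (grey), in CPM plus 0.01, on a log axis. Most muscle genes lie below 1 CPM, and Tcap at 315 CPM and Cox6a2 at 564 CPM stand well above titin at 0.905 CPM.

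Partners of these genes were detected to different extents. Among 20 regulators of the PGC-1 and ERR pathway, 7 reached 20 CPM in WT PVALB cells, including Esrra (71.3 CPM), another receptor for PGC-1alpha, Tfam (44.2 CPM), which packages and transcribes mitochondrial DNA, and Ppargc1b (36.8 CPM), the paralog of Ppargc1a. Perm1, a PGC-1 target and regulator in muscle, was at 0.0786 CPM. The clearance receptor for osteocrin, Npr3, was at 10.5 CPM, and Nppc, the precursor of a peptide that this receptor removes, was at 61.6 CPM. Of the close relatives of Etv1, Etv5 was at 23.9 CPM and Etv4 at 0.215 CPM. Mef2c, a transcription factor of muscle and neurons, was at 1286 CPM.

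Patterns over 52 WT class sums were compared by correlation of log levels, as a description. The sums share libraries and depth. Esrrg ran closest to Iqsec3 (r = 0.947), and Ppargc1a to Gria1 (0.902), Uqcr10 (0.883), Atp1b1 (0.880), Cox8a (0.877) and Cox7b (0.874), of which Uqcr10, Cox8a and Cox7b encode respiratory chain subunits. Tcap ran closest to Gm13629 (0.873) and Cox6a2 to Cemip (0.886). Ostn and Etv1 had no gene above 0.663. Within the group, the closest pairs were Tcap with Esrrg (0.896), Cox6a2 with Esrrg (0.809) and Cox6a2 with Tcap (0.804), while Etv1 had r between -0.415 and -0.0167 with the others. Over the 24 sums of interneurons alone, the closest pair was Cox6a2 with Tcap (0.824), and Etv1 had r between 0.198 and 0.470 with the others.

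In cortex, loss of Grin1 was examined by setting 2 null against 3 WT PVALB sums. Of 9686 genes tested, edgeR's quasi-likelihood test called 1 (0.0103%), with the study's thresholds of 0.01 for the adjusted p and 0.1 for the change in natural logs. The called gene was Spp1, higher in null cells by 3.36 ± 0.40 (log2, SE, adjusted p = 0.00497), and it is none of the 6. At an unadjusted edgeR p below 0.05 there were 365 genes (3.77%). Leaving out any cortical library other than WT replicate 1 gave 0 calls. With the replicate number as a block, 4 genes were called, and Ppargc1a, Esrrg and Cox6a2 were not among them.

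The regulators did not pass the test, and neither did Grin1. Ppargc1a stood at 304, 306 and 285 CPM in the WT cortical libraries and at 269 and 218 CPM in the null ones. Both null values thus lay below all WT values, and how many of all genes do so is not given. The difference was -0.28 ± 0.26 (log2, SE, edgeR adjusted p = 0.9999). Esrrg stood at 51.7, 73.7 and 59.4 CPM in WT and at 67.3 and 62.3 CPM in null libraries. The groups overlapped, and the difference was 0.06 ± 0.32 (adjusted p = 0.9999).

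Cox6a2 stood at 572, 550 and 642 CPM in WT and at 691 and 718 CPM in null cortical libraries. Both null values lay above every WT value, and how many of all genes do so is not given. The difference of 0.28 ± 0.25 (log2, SE) did not pass (edgeR adjusted p = 0.9999).

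Tcap, Ostn and Etv1 were chosen for their values in these libraries, and no test applies to them. Tcap stood at 354, 292 and 316 CPM in WT and at 95.6 and 170 CPM in null libraries, with a fitted log2 difference of -1.21. Ostn stood at 46.1, 30.2 and 52.8 CPM in WT and at 0 and 4.69 CPM in null libraries. The Ostn values rest on 466 UMIs from WT and 15 from null cells, a pooled ratio of 10.7 with a 95% counting interval of 6.42 to 19.3. Such intervals cover counting error only. Ostn was seen in 201 of 1284 WT cells (15.7%) and 10 of 275 null cells (3.64%), and in a WT cell it reached up to 14 UMIs. Etv1 stood at 38.8, 51.4 and 46.7 CPM in WT and at 159 and 133 CPM in null libraries, with a fitted log2 difference of 1.67. For all 3 genes, no null library reached into the WT range, which is the shift that they were picked for. How many of all genes separate in this way is not given.

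Replicate numbers 1 and 2 each pair a null library with a WT library of the same chemistry, and replicate 3 exists for WT only. Within replicates 1 and 2, the null minus WT difference in log2(CPM + 1) was -1.88 and -0.77 for Tcap and 2.01 and 1.35 for Etv1. Ostn had 0 UMIs in the 28 cells of null replicate 1, so its level there was at least 4.34-fold lower than in WT replicate 1, taken against a floor of 3 counts in that library (10.6 CPM). In replicate 2 the Ostn difference was -2.45, from 15 null and 80 WT UMIs. For Ppargc1a it was -0.18 and -0.48, and for Cox6a2 0.27 and 0.38. Esrrg differed in sign, at 0.37 and -0.24.

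**Figure D3:**
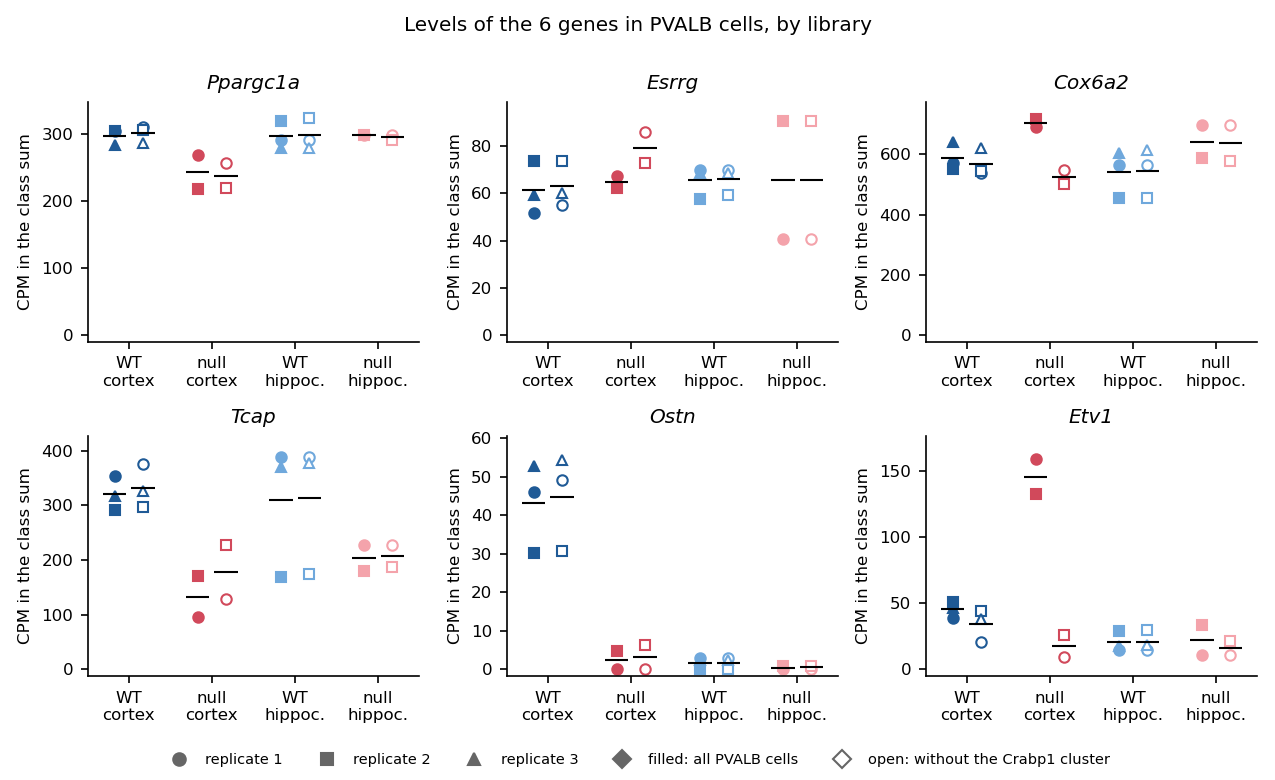
Level of each gene in PVALB cells of each library, in CPM of the class sum, by region and genotype. Filled markers hold all PVALB cells, open markers leave out the Crabp1-led cluster, bars are group means and marker shape gives the replicate. In cortex, Tcap and Ostn are lower and Etv1 is higher in both null libraries, and the open markers of Etv1 overlap between genotypes.

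PVALB cells fell into 3 clusters, named here after Tac1 (1642 cells), Pthlh (397 cells) and Crabp1 (117 cells). Pthlh and Crabp1 were the first genes of their clusters by fold, and Tac1 was the second of its cluster after Cartpt. The Crabp1-led cluster carries Cox6a2 among its leading genes, and Etv1 at the highest level of the 3. In WT sums, most PVALB markers were lower in it than in the Tac1 cluster. Pvalb was at 508 against 1801 CPM, Tac1 at 85.6 against 2055, Syt2 at 5.91 against 108, Kcnip2 at 56.1 against 179 and Kcnc1 at 402 against 599. Pthlh was higher (827 against 42.1 CPM). The study could not exclude that striatal cells expressing Nkx2-1 had entered its data. The origin of this cluster was not tested. Its share of cortical PVALB cells was 7.25%, 2.0% and 2.79% in the WT libraries. In the null libraries its share was 25% (7 of 28 cells, 95% Wilson interval 12.7% to 43.4%) and 23.9% (59 of 247 cells, 19.0% to 29.6%). The genes that define the cluster include those under study, so its share is described without a test. In hippocampus it made up 0%, 1.14% and 2.74% of WT and 0% and 3.44% of null PVALB cells.

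Etv1 in the Crabp1-led cluster of cortex was at 329, 444 and 309 CPM in WT and at 593 and 443 CPM in null libraries. A UMI of Etv1 was present in 89.7% of the cells of this cluster over all libraries. The cluster held 95.6% and 85.4% of the Etv1 UMIs of null cortical PVALB cells, against 50.0%, 16.2% and 20.2% in WT. With the cluster left out, Etv1 stood at 20.6, 43.9 and 38.4 CPM in WT and at 9.53 and 26.1 CPM in null libraries. The groups then overlapped, and the fitted log2 difference changed sign to -0.66. Within replicates 1 and 2, the null minus WT difference without the cluster was -1.04 and -0.73 in log2(CPM + 1). Null replicate 1 then rests on 2 Etv1 UMIs in 21 cells, below the level of 3 counts, so its value has little precision, and null replicate 2 on 62 UMIs. Leaving out this cluster was chosen after its values were seen.

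The same cluster carried Cox6a2 at 1112, 889 and 1278 CPM in WT and at 1104 and 1351 CPM in null cortex. It held 41.0% and 48.1% of the Cox6a2 UMIs of null cortical PVALB cells and 3.02% to 11.5% of those of WT. Without it, Cox6a2 stood at 538, 544 and 622 CPM in WT and at 548 and 501 CPM in null libraries, which overlapped, and the log2 difference was -0.09. Markers of the NGFC class moved with it. Their summed level in cortical PVALB cells was 365 to 524 CPM in null and 122 to 173 CPM in WT libraries. Without the cluster it was 110 to 173 CPM in null and 93.5 to 144 CPM in WT libraries. Of the 6 NGFC markers, Lamp5 was at 0 to 0.314 CPM in the full cortical PVALB sums.

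Tcap and Ostn differed from Etv1 in this respect. The Crabp1-led cluster of cortex held little Tcap, at 31.3, 20.2 and 15.5 CPM in WT and 0 and 4.90 CPM in null libraries, and Ostn was seen in 0 of its 38 WT and 0 of its 66 null cortical cells. These counts allow shares of up to 9.18% and 5.50% (95% Wilson intervals) of cells with a UMI and set no limit on cells that express the gene. Without it, Tcap still stood at 375, 297 and 326 CPM in WT and at 129 and 226.98 CPM in null libraries. Ostn stood at 49.0, 30.8 and 54.5 CPM in WT and at 0 and 6.30 CPM in null libraries. Ppargc1a stood at 312, 306 and 287 CPM in WT and at 257 and 219 CPM in null libraries.

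Markers of SST cells also differed in these sums. The summed level of the 6 SST markers in cortical PVALB cells was 868 to 1284 CPM in null and 273 to 934 CPM in WT libraries, which overlapped. Sst alone was at 804 to 1121 CPM in null and 158 to 772 CPM in WT libraries. Without the Crabp1-led cluster, the summed level was 1119.6 to 1683 CPM in null and 281 to 927 CPM in WT libraries, with no overlap. SST cells of WT cortex carried Tcap at 2.38 to 5.62 CPM and Ostn at 0 to 1.25 CPM. The part of SST markers in the Tcap and Ostn values was not tested.

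The Pthlh-led cluster also differed in share. It took 10.9%, 13.6% and 4.80% of cortical PVALB cells in WT and 3.57% and 29.96% in null libraries. Tcap was lower in it than in the Tac1 cluster, at 157, 110.0 and 99.5 CPM in WT cortex and at 100.2 CPM in null replicate 2, while null replicate 1 had 1 such cell. Within the Tac1 cluster, Tcap was at 399, 333 and 339 CPM in WT and at 130 and 305 CPM in null libraries. The null minus WT difference there was -1.61 in replicate 1, which rests on 20 null cells, and -0.12 in replicate 2 (log2(CPM + 1)). Ostn in the Tac1 cluster was at 46.8, 34.4 and 56.9 CPM in WT and at 0 and 6.80 CPM in null libraries. Null replicate 1 had 0 UMIs in 20 cells, at least 3.25-fold lower than WT replicate 1 against the floor of 3 counts, and the difference in replicate 2 was -2.18. Ostn was thus lower within this cluster in both pairs, with only a bound in replicate 1, and the gap in Tcap was small there in the replicate with more cells.

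For the other genes, values within the Tac1 cluster of cortex were also set side by side. Esrrg stood at 58.8, 71.6 and 62.6 CPM in WT and at 86.3 and 81.6 CPM in null libraries, so that both null values lay above all WT values. Its differences within replicates 1 and 2 were 0.55 and 0.19 in log2(CPM + 1), and the fitted log2 difference of 0.39 did not pass (edgeR adjusted p = 0.9999). Ppargc1a was at 295 to 329 CPM in WT and 253 to 259 CPM in null libraries, and Cox6a2 at 567 to 628.5 CPM in WT and 489 to 552 CPM in null libraries. Both genes were lower in null libraries there with no overlap, and neither passed. For these genes and for Esrrg, the share of all genes that separate so in this cluster is not given.

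**Figure D4:**
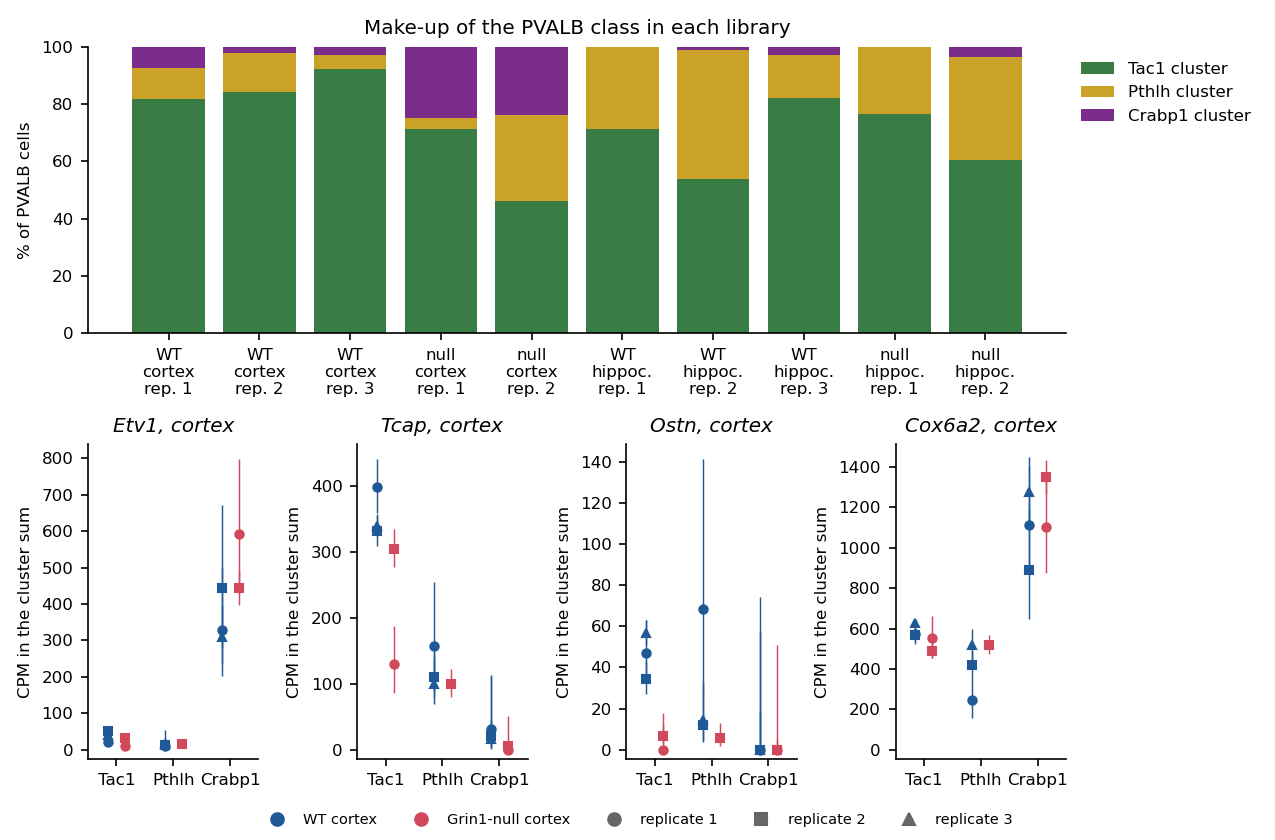
Upper panel: share of PVALB cells in the Tac1, Pthlh and Crabp1 clusters for each library. Lower panels: cortical level of the genes by cluster and library, in CPM, with 95% exact Poisson intervals that cover counting error only. The Crabp1-led cluster takes 25% and 23.9% of null cortical PVALB cells and 2.0% to 7.25% of WT ones, and it has the highest Etv1 level and little Tcap.

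In hippocampus, 0 of 9686 genes were called between null and WT PVALB cells (0%). At an unadjusted p below 0.05 there were 303, and DESeq2 called 1. All 6 genes could be tested here, and none passed (edgeR adjusted p = 0.9996 for each). Grin1 did not pass here either. Tcap stood at 388, 169 and 369 CPM in WT and at 228 and 180 CPM in null libraries, so the groups overlapped through WT replicate 2, in which the Pthlh-led cluster made up 44.9% of PVALB cells. Within the Tac1 cluster, Tcap was at 494, 234 and 436 CPM in WT and at 287 and 239.7 CPM in null hippocampus, so that WT replicate 2 stayed low and the groups still overlapped. Over all PVALB cells the difference was -0.60 ± 0.35 (log2, SE), and within replicates 1 and 2 it was -0.77 and 0.09. Etv1 stood at 14.6, 28.8 and 18.0 CPM in WT and at 11.3 and 33.8 CPM in null libraries (0.31 ± 0.42). Ppargc1a stood at 292, 321 and 279 CPM in WT and at 299.6 and 299 CPM in null libraries (0.01 ± 0.25).

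Cox6a2 in hippocampus stood at 563, 456 and 604 CPM in WT and at 698 and 587 CPM in null libraries, with a difference of 0.25 ± 0.26 (log2, SE). Within replicates 1 and 2 it was 0.31 and 0.37 in log2(CPM + 1), positive in both. Esrrg stood at 70.05, 57.6 and 68.6 CPM in WT and at 40.5 and 90.4 CPM in null libraries (0.08 ± 0.32). Ostn was near the limit of detection, with 3 UMIs in all WT and 4 in all null hippocampal PVALB cells. The difference between the cortical and hippocampal effects of genotype was tested for Ppargc1a (0.29), Cox6a2 (-0.02) and Esrrg (0.01, all log2), and none passed (edgeR adjusted p = 0.9997). In that test 0 of 9686 genes were called (0%) and 114 had an unadjusted p below 0.05.

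Between regions in WT, 3 of 8761 genes were called in PVALB cells (0.0342%), Lamp5, Ddit4l and Rxfp3, all higher in hippocampus. With the replicate block 75 were called, and leaving out any 1 WT library left 0. Ppargc1a differed by -0.00 ± 0.23 between hippocampus and cortex, Cox6a2 by -0.13 ± 0.23 and Esrrg by 0.08 ± 0.26 (log2, SE), and none passed (edgeR adjusted p = 0.99997). Tcap, Ostn and Etv1 are described only. Fitted log2 differences were -0.07 for Tcap and -1.13 for Etv1. Ostn was at 2.92, 0 and 2.41 CPM in WT hippocampus against 30.2 to 52.8 CPM in WT cortex, a pooled ratio of 26.6 (95% counting interval 9.05 to 129). Summed oligodendrocyte markers in PVALB cells were 1880 to 3585 CPM in WT hippocampus and 163 to 1031 CPM in WT cortex. In the same sums Pvalb was at 333 to 1429.7 CPM in WT hippocampus and 1701 to 2052 CPM in WT cortex, with no overlap, and Sst at 398 to 3577 CPM and 158 to 772 CPM, which overlapped. The part of these markers in the regional values was not tested.

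Lists of related genes in PVALB cells held no called gene. Of 22 mitochondrial fuel and energy enzymes, 18 had a positive null minus WT difference in cortex (median log2 0.13, all genes tested -0.00) and 21 in hippocampus (0.38, all genes -0.01). Between regions in WT, 20 of the 22 were negative in hippocampus (median -0.33, all genes 0.02). Summed oligodendrocyte markers in the same sums were 901 to 1903 CPM in null and 1880 to 3585 CPM in WT hippocampus, and 77.9 to 608 CPM in null and 163 to 1031 CPM in WT cortex. The median PVALB cell held 12407 and 15760 UMIs in null hippocampus and 6478, 2553 and 11593 UMIs in WT hippocampus. The part of these markers, of depth and of the cells removed for mitochondrial UMIs in these medians was not tested. Citrate synthase (Cs), the entry enzyme of the citric acid cycle, differed by 0.65 ± 0.27 in null hippocampus (log2, SE, edgeR adjusted p = 0.9996). The 16 tested cytochrome c oxidase subunits had medians of 0.06 in cortex and 0.03 in hippocampus. Of 5 genes that depend on PGC-1alpha in PVALB cells, all 5 were positive in cortex (median 0.28) and 4 in hippocampus (median 0.47), and none passed. The null cortical libraries lay on both sides of the WT range for Pvalb, at 1325 and 3141 CPM against 1701 to 2052 CPM, and for Syt2, at 51.0 and 216 CPM against 56.3 to 118 CPM. Both null values lay above all WT values for Nefh, at 68.2 and 117 CPM against 39.7 to 66.8 CPM, and for Inpp5j, at 103 and 114 CPM against 83.5 to 96.3 CPM. How many of all genes separate in this way is not given. For Cplx1 both null values lay inside the WT range, at 1241 and 1303 CPM against 968 to 1473 CPM. Cplx1 had the negative difference in hippocampus (-0.34 ± 0.39, log2, SE).

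In SST interneurons, Cox6a2, Ppargc1a and Esrrg were higher in hippocampus than in cortex of WT mice. For these values the TH cluster, which was summed with the SST cells in the comparison as designed and which carries 373 CPM of Cox6a2, was left out after its values were seen. Cox6a2 stood at 17.9, 10.6 and 19.9 CPM in WT cortex and at 120, 63.9 and 79.7 CPM in WT hippocampus. Ppargc1a stood at 86.8, 101 and 90.4 CPM in cortex and at 194, 176 and 169.6 CPM in hippocampus. Esrrg stood at 8.20, 10.9 and 8.35 CPM in cortex and at 19.2, 24.7 and 22.1 CPM in hippocampus. No hippocampal library reached down into the cortical range for any of the 3 genes. The share of all genes that separate in this way is not given, so this is a description. Without the TH cluster, 913 of 11573 genes (7.89%) had an unadjusted edgeR p below 0.05 between regions.

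With the TH cluster in the SST sums, none of the genes passed. The hippocampus minus cortex difference was 0.87 ± 0.37 for Cox6a2 (log2, SE, edgeR adjusted p = 0.653), 0.64 ± 0.21 for Ppargc1a (adjusted p = 0.375) and 0.86 ± 0.24 for Esrrg (adjusted p = 0.271). That fit called 5 of 11969 genes (0.0418%). With the replicate number as a block, 367 of 12461 genes were called (2.95%), and Cox6a2 was among them (adjusted p = 0.00557). Ppargc1a (adjusted p = 0.0456) and Esrrg (adjusted p = 0.0275) were not.

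Without the TH cluster, the differences were 2.36 ± 0.34 for Cox6a2, 0.89 ± 0.21 for Ppargc1a and 1.21 ± 0.26 for Esrrg (log2, SE). Unblocked, 7 of 11573 genes were called (0.0605%) and none of the 3 was among them, with edgeR adjusted p = 0.0256, 0.141 and 0.104 in that order. With the block, 415 of 12066 genes were called (3.44%), and Cox6a2 (adjusted p = 1.28e-06), Ppargc1a (adjusted p = 0.0050) and Esrrg (adjusted p = 0.00355) passed. Leaving out each WT library in turn under the block kept Cox6a2 called every time, at 2.21 to 2.60. A library whose partner is left out is alone in its block and adds nothing to the regional difference. Leaving out either library of a replicate number thus gave nearly the same value, and these fits are not separate checks. They also leave few residual degrees of freedom. This holds for every gene under the block. Ppargc1a and Esrrg lost their calls without replicate 1 or replicate 3 of either region, with adjusted p up to 0.148 for Ppargc1a and 0.0445 for Esrrg. Both kept them without replicate 2 of either region.

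Null libraries repeated the order of the regions for Cox6a2, Ppargc1a and Esrrg. Cox6a2 stood at 22.2 and 17.9 CPM in null cortex and at 76.7 and 99.0 CPM in null hippocampus. Ppargc1a stood at 105 and 54.1 CPM in null cortex and at 115 and 186 CPM in null hippocampus. Esrrg stood at 3.70 CPM, on 3 UMIs, and 8.41 CPM in null cortex and at 13.9 and 27.5 CPM in null hippocampus. The regional difference was not tested in null cells.

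Etv1 pointed the other way in SST cells, at 11.7, 18.9 and 14.4 CPM in WT cortex and 6.41, 11.8 and 2.31 CPM in WT hippocampus, and the ranges overlapped. Its difference without the TH cluster was -1.23 ± 0.51 (log2, SE, edgeR adjusted p = 0.556, with the block 0.0201). Under the block it was called without replicate 1 or replicate 2 of either region (adjusted p = 5.41e-06 to 0.0060) and not without replicate 3 of either region (up to 0.241), and the blocked difference ran from -1.92 without replicate 2 to -0.80 without WT cortex replicate 3. Tcap was low but ordered like Cox6a2, at 3.54, 2.38 and 5.62 CPM in WT cortex and 6.41, 17.0 and 6.28 CPM in WT hippocampus, with no overlap. Its difference was 1.25 ± 0.51 (log2, SE, edgeR adjusted p = 0.543, with the block 0.136), and under the block it was called without WT cortex replicate 3 only (1.93, adjusted p = 0.00193). Without replicate 2 of either region it was 0.28 (adjusted p = 0.753 and 0.778).

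SST cells fell into 6 clusters, and the regional order of Cox6a2 held in 5 of them, as a description of pooled WT cells. It went from 29.7 to 143 CPM from cortex to hippocampus in cluster 3 and from 9.42 to 88.6 CPM in cluster 7. It went from 6.35 to 19.2 CPM in cluster 8, from 12.9 to 34.9 CPM in cluster 11 and from 29.1 to 82.2 CPM in cluster 14. Cluster 23 had 4.66 CPM in cortex and 0 in its 23 hippocampal cells. Cluster 7 made up 11.7% of cortical and 46.0% of hippocampal SST cells, so the mix of clusters also differed. Pvalb in the WT SST sums was at 40.3 to 86.0 CPM in cortex and at 25.6 to 166 CPM in hippocampus, and Mbp, a myelin gene, at 88.6 to 112 CPM and 240.3 to 419 CPM. The part of other cells' RNA in these differences was not tested.

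**Figure D5:**
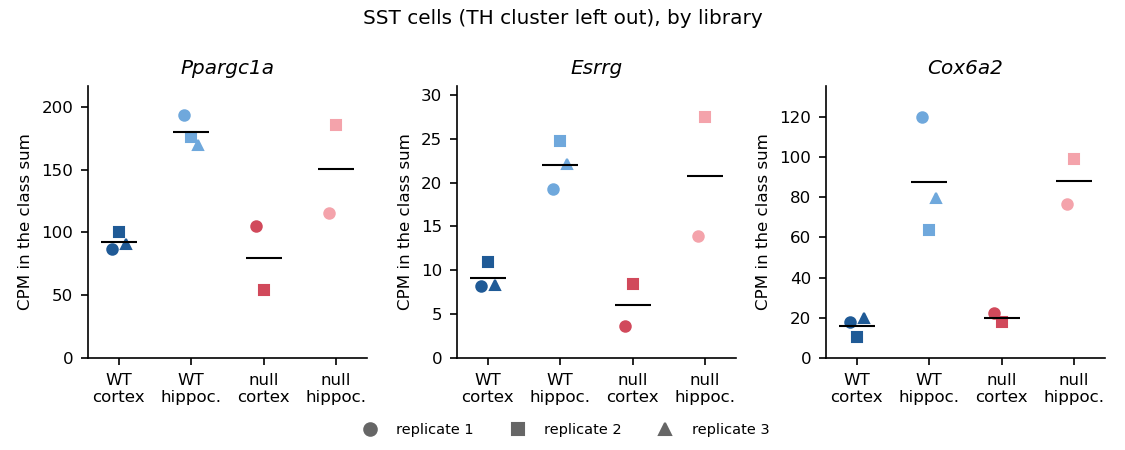
Level of Ppargc1a, Esrrg and Cox6a2 in SST cells of each library with the TH cluster left out, in CPM of the class sum. Bars are group means and marker shape gives the replicate. In WT, all 3 hippocampal libraries lie above all 3 cortical ones for each gene, with Cox6a2 at 63.9 to 120 CPM against 10.6 to 19.9 CPM. The share of all genes that separate in this way is not given.

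Between genotypes, the SST class with the TH cluster included called 0 of 12832 genes in cortex (0%) and 0 in hippocampus (0%), with 277 and 467 at an unadjusted edgeR p below 0.05 and 2 called by DESeq2 in each region. Cox6a2 differed by 0.38 ± 0.38 in cortex and 0.18 in hippocampus, Ppargc1a by 0.00 and -0.16, Etv1 by 0.32 and 0.15, and Tcap by 0.37 and 0.10 (log2). None passed. Without the TH cluster, the cortical differences turned to -1.28 for Tcap and -0.23 for Ppargc1a, and neither passed. Tcap was then at 4.98 and 3.02 CPM in null hippocampus, below all WT values there, and its difference of -1.47 did not pass (edgeR adjusted p = 0.961). Ostn was under the filter on low counts in SST cells.

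NGFC cells carried Cox6a2 at 385 to 697 CPM in WT libraries and at 415 and 557 CPM in null hippocampus. None of the 6 genes passed the genotype test in hippocampus, where edgeR called 0 of 10024 genes (0%), with 323 at an unadjusted p below 0.05 and 1 by DESeq2. Ppargc1a differed by -0.49 ± 0.41 and Ostn by -1.74 ± 1.12 (log2, SE), and the Ostn value ran from -6.77 to -0.70 when 1 library was left out. It rests on few cells: a UMI of Ostn was seen in 10 of 1053 WT cells, with up to 27 UMIs in a cell, and in 10 of 744 null cells, with up to 21. In WT cortex it was seen in 8 of 292 NGFC cells. Ostn stood at 28.3, 28.9 and 0 CPM in WT cortex and 0, 11.2 and 23.7 CPM in WT hippocampus. Between regions in WT, edgeR called 0 of 7926 genes (0%), with 218 at an unadjusted p below 0.05, 5 by DESeq2 and 4 with the replicate block, and Ppargc1a differed by 0.59 and Cox6a2 by -0.27. In cortex, 1 null library had 10 or more NGFC cells, so no test was made. TH cells carried Ppargc1a at 345 to 440 CPM in WT and 302 to 409 CPM in null libraries, and Tcap at 104 to 229 CPM in WT and 55.8 to 244 CPM in null libraries, with ranges that overlapped in each region. Cox6a2 in TH cells of hippocampus was at 249.9 to 416 CPM in WT and 449 to 474 CPM in null libraries, with no overlap. How many of all genes separate so in TH cells is not given. The Cox6a2 differences within replicates 1 and 2 were 0.34 and 0.84 in log2(CPM + 1). Ostn in TH cells of cortex was at 4.53 to 5.43 CPM in WT, on 3 to 8 UMIs per library, and at 0 in both null libraries, where 3 counts would be 33.5 CPM in replicate 1, above the WT level, and 1.33 CPM in replicate 2. Genotype differences in TH cells were not tested.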

How the data were processed

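The 6 genes, the related lists and the cell type markers were chosen with earlier results of these data known. Per the labels and the study's methods, the authors aligned 10x Genomics 3′ reads to mm10 with Cell Ranger, named as version 2.1.1 in the submitters' processing notes and as 3.0.2 per the file headers, and deposited UMI counts per cell in 4 matrices, 1 for each region and genotype. The deposited counts are not normalized. Each matrix pools libraries that are told apart by the barcode suffix, and replicate numbers were given to suffixes by matching the cell counts in the study's methods, 10 libraries in all.

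The study's cell filter was applied, with a range of 200 to 6000 detected genes and an upper limit of 30% of UMIs from mitochondrial transcripts. Cells were integrated over the 4 matrices, each holding a single region and genotype, with Seurat 5.3.0 (2000 variable features, 25 dimensions, resolution 1). Libraries and chemistries within a matrix were not integrated. Clusters were named from at least 3 markers. Doublets were not removed. Scrublet marked 249 cells (0.950%), and leaving them out was an alternative. Class sums of at least 10 cells were tested with edgeR 4.0.16 (TMM, filterByExpr, quasi-likelihood test, Benjamini-Hochberg adjustment over all genes tested). One model over 4 groups gave the genotype contrasts, and the 6 WT libraries gave the region contrast. A call needed an adjusted p below 0.01 and a natural-log change of 0.1. SE is the log2 change divided by the square root of F. The script was tested on simulated data. DESeq2 1.42.0 and the other alternatives are in the closing section. Within-replicate differences used log2(CPM + 1). Shares have 95% Wilson intervals and pooled UMI ratios have exact intervals. The genes named are the 6, those of the lists, called genes and, for each of the 6, the genes of the most similar pattern with a mean of at least 20 CPM.

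The replicate numbers pair the libraries: deviations of same-numbered libraries from their group means correlated at 0.167 or more in every pair. The blocked value is given where it changed a call. Libraries are pools of animals, and whether replicates are separate animals in every case rests on the study's description, so p-values measure the spread between libraries. In class sums, a change in the mix of cells and a change of RNA per cell cannot be told apart without the cluster values. Sequences of promoters and proteins were not used here.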

Additional observations from a re-analysis of the deposited data

Results flagged for a closer look

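Cox6a2 in the Tac1 cluster of PVALB cells went opposite ways in the 2 regions. The null minus WT difference in log2(CPM + 1) was -0.049 and -0.214 in cortex and 0.385 and 0.382 in hippocampus, for replicates 1 and 2. Both replicates were negative in cortex and both were positive in hippocampus. The cortical value of replicate 1 rests on 115 UMIs in 20 null cells, and its 95% counting interval of 455 to 662 CPM holds the WT value of 571 CPM. In hippocampus the null range of 621 to 739 CPM overlapped the WT range of 477 to 667 CPM. The difference between regions was not tested in this cluster.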

How the results depend on the processing

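Most results kept their direction and their side of the threshold: of 784 alternative values of the log2 differences, 701 did, 76 turned direction and 4 passed newly. Of the 76, 70 were of tested differences and 6 of differences given without a test. Cortical PVALB differences given without a test moved by more than the SD between libraries in 5 cases, 2 of them turning: Etv1 to -0.54 in the Tac1 cluster alone and to -0.66 without the Crabp1-led cluster, Tcap to -0.65 in the Tac1 cluster alone and to -1.71 without null replicate 2, and Ostn to -9.35 without null replicate 2, where the null library left is at 0 and the fit depends on the prior count. The cause of each turn was not tested unless named. Of the 70, 29 came from leaving out a library, and none of the 70 passed (lowest adjusted p = 0.136). The number of genes called in cortical PVALB cells was 14 at an adjusted p of 0.05, 16 with DESeq2, 60 with no filter on low counts, 4 with the replicate block, 13 with only the 2 groups compared, 0 without integration and with the 6 genes left out of the clustering features, and 4 with classes of single cells by markers. Leaving out a library gave 0 to 2 calls, with 2 without WT cortex replicate 1 and 0 without any other. In hippocampus the count was 1 with DESeq2 and 13 with no filter, and 0 to 0 when a library was left out. Between regions it was 11 at an adjusted p of 0.05, 29 with DESeq2, 86 with no filter, 75 with the replicate block, 8 with all 4 groups in the fit, 7 with classes by markers, and 0 to 0 when a library was left out. The block changed no call of the 6 genes other than those given for SST cells.

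PVALB, genotype in cortex: Cox6a2 turned to -0.16 in the Tac1 cluster alone and to -0.092 without the Crabp1-led cluster, and Esrrg to -0.055 with classes by markers. In hippocampus, Ppargc1a turned to -0.011 with DESeq2, -0.032 with the block, -0.0094 with only the 2 groups compared, -0.00090 without Scrublet-marked cells, -0.078 with classes by markers, -0.024 in the Tac1 cluster alone and -0.021 without the Crabp1-led cluster. Etv1 turned to -0.163 and -0.227 under the last 2 settings. Between regions, Ppargc1a turned to 0.0020 with DESeq2, 0.012 without Scrublet-marked cells, 0.084 with classes by markers and 0.071 in the Tac1 cluster alone, and Esrrg to -0.13 and -0.29 under the last 2 of these. Tcap, not tested, turned to 0.010 without integration and the 6 genes in the features and to 0.11 in the Tac1 cluster alone.

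SST, genotype in cortex: Ppargc1a turned to -0.0067 with library-size scaling, -0.044 with no filter, -0.017 with the block, -0.041 without Scrublet-marked cells and -0.234 without the TH cluster (-0.29 with the block too), and Tcap to -1.28 without the TH cluster (-1.35 with the block). Etv1 turned to -0.058 with the block, and in hippocampus to -0.021. In hippocampus Tcap turned to -1.47 without the TH cluster (-1.49 with the block). Esrrg there turned to -0.034 with DESeq2, -0.0013 with library-size scaling, -0.15 with the block, -0.0101 with only the 2 groups compared, -0.00996 with a stricter cell filter, -0.011 without Scrublet-marked cells, -0.29 with classes by markers and -0.00051 without the TH cluster (-0.10 with the block). Between regions Tcap turned to 1.25 without the TH cluster (1.16 with the block), whose own Tcap left the sums.

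Where leaving out 1 library turned a direction, the values ranged as follows. In PVALB cells, Esrrg in cortex ran from -0.026 to 0.17, Ppargc1a in hippocampus from -0.0496 to 0.089, Etv1 in hippocampus from -0.84 to 0.67, Esrrg in hippocampus from -0.64 to 0.44, and between regions Ppargc1a from -0.085 to 0.049, Tcap from -0.26 to 0.22 and Esrrg from -0.0062 to 0.196. In SST cells of cortex, Ppargc1a ran from -0.0102 to 0.041, Tcap from -1.67 to 1.03, Etv1 from -0.51 to 1.09 and Esrrg from -1.85 to 0.22. In SST cells of hippocampus, Ppargc1a ran from -0.38 to 0.029, Cox6a2 from -0.088 to 0.38, Tcap from -0.048 to 0.30, Etv1 from -0.30 to 0.87 and Esrrg from -0.70 to 0.38. In NGFC cells of hippocampus, Ppargc1a ran from -0.72 to 0.023, Cox6a2 from -0.0044 to 0.32 and Esrrg from -1.23 to 0.34, and between regions Ostn from -1.45 to 0.18 and Esrrg from -0.10 to 0.33. Where a group was left with 1 library, it was assumed to vary like the other groups. The Ostn values of hippocampal PVALB cells rest on 3 WT and 4 null UMIs.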
